A study of Mus musculus with 147 samples.

Results

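Kinesins are motor proteins that use ATP to walk along microtubules or to take them apart. In dividing cells one set of them builds the spindle, moves the chromosomes and completes cytokinesis, another set carries vesicles, endosomes and organelles, and yet another works in cilia and in the sperm tail. Male germ cells use all of these in turn, since they divide in the embryo, stop in the fetal testis, resume after birth, pass through meiosis and then grow a flagellum. The members described here were all genes of the count table whose symbol is Kif followed by a digit, 40 of 31053 genes. Of these, 38 encode motors and were separated by known role into 11 mitotic, 14 transport, 7 cilium and spermatid, and 6 other kinesins. The remaining 2 are no motors: Kif16bos is a transcript from the opposite strand of the Kif16b locus, and Kif1bp encodes a protein that binds kinesins.

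The cells came from offspring of C57BL/6 females and BVSC males, which carry the Blimp1-mVenus and Stella-ECFP reporters, and all groups described here share this wild-type transgenic background. RNA of single cells was counted by STRT-seq, which tags the 3′ end of each molecule with a unique molecular identifier (UMI), so that levels do not scale with transcript length. Prenatal germ cells were sorted by reporter fluorescence, with Stella-ECFP alone from E14.5, and each replicate up to E18.5 combined more than 1 embryo or gonad. Postnatal cells were picked by morphology from 1 mouse per replicate, and at PND30 they were sorted by DNA content into 4N, 2N and 1N gates. The migrating germ cells were those of E8.5, E9.5 and E10.5 (7 pools), the gonadal germ cells those of E11.5, E12.5 and E13.5 (6 pools), the arrested germ cells those of E16.5, E17.5, E18.5 and PND0 (8 pools), and the spermatogonia those of PND3 to PND7 (10 pools). These stage names follow age, and the paper also places prospermatogonia and spermatocytes within PND3 to PND7. Each PND30 gate gave 2 pools. The cell names give no sex for the 192 sorted cells of E8.5, the 192 of E9.5 and 192 of those of E10.5, and give male for the others.

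Counts of the germ cells of one time-point and replicate were summed into a pool and given as counts per 1000000 UMIs (CPM) of that pool. In all, 8452 germ cells formed 58 pools of 15 to 446 cells with 7424539 to 187711061 UMIs, and 57 of these pools entered the test. In the shallowest pool 1 CPM stood for 7.42 UMIs. The markers of the labelled stages were checked: the summed level of 10 spermatid markers was 25.5 to 71.6 CPM in the spermatogonia, 1531 to 1804 CPM in the 4N gate and 6045 to 9458 CPM in the 1N gate, and that of 10 spermatocyte markers was 1053 to 1245, 4323 to 4913 and 3523 to 3612 CPM. In the 2N gate the spermatid sum was 4092 to 4200 CPM and the spermatocyte sum 3646 to 4104 CPM. Both lists were also used to choose the germ cells, so the check is not independent of that choice. Some pools stood apart. E8.5 replicate 3 held 15 germ cells among 48 sorted cells, and the Adult replicates differed, with a mitotic kinesin sum of 788 CPM in replicate 1 and 552 CPM in replicate 2. In pooled cells, fewer cells of a type and less RNA per cell cannot be told apart.

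The summed level of the family was lowest in arrested germ cells, where every pool was below every pool of the spermatogonia, and its composition changed. The 38 motors together gave 1725 ± 180 CPM (SD, n = 7) in migrating, 1893 ± 177 (n = 6) in gonadal, 1431 ± 107.1 (n = 8) in arrested germ cells and 1940 ± 136.9 (n = 10) in spermatogonia, and 1845 ± 58.6, 2007 ± 30.8 and 2044 ± 69.3 CPM (n = 2 each) in the 4N, 2N and 1N gates of PND30. Mitotic kinesins made up 72.2% of this in migrating germ cells, 31.8% in arrested germ cells, 62.1% in spermatogonia and 22.7% in 1N cells. Transport kinesins made up 54.4% in arrested germ cells and 22.3% in 1N cells. The cilium and spermatid kinesins took 0.97% of the family in gonadal germ cells and 23.8% in 4N cells, and the other kinesins, which include the depolymerases Kif2a and Kif2b, took 32.9% in 1N cells. The member with the highest mean also changed: it was Kif20b in migrating germ cells (260 CPM), gonadal germ cells (300 CPM) and spermatogonia (246 CPM), Kif3a in arrested germ cells (276 CPM), Kif9 in 4N cells (291 CPM) and Kif2b in 2N (294 CPM) and 1N cells (520 CPM, 25.4% of the family). In 2N cells the mean of Kif9, at 293.9 CPM, was close to that of Kif2b.

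**Figure D1:**
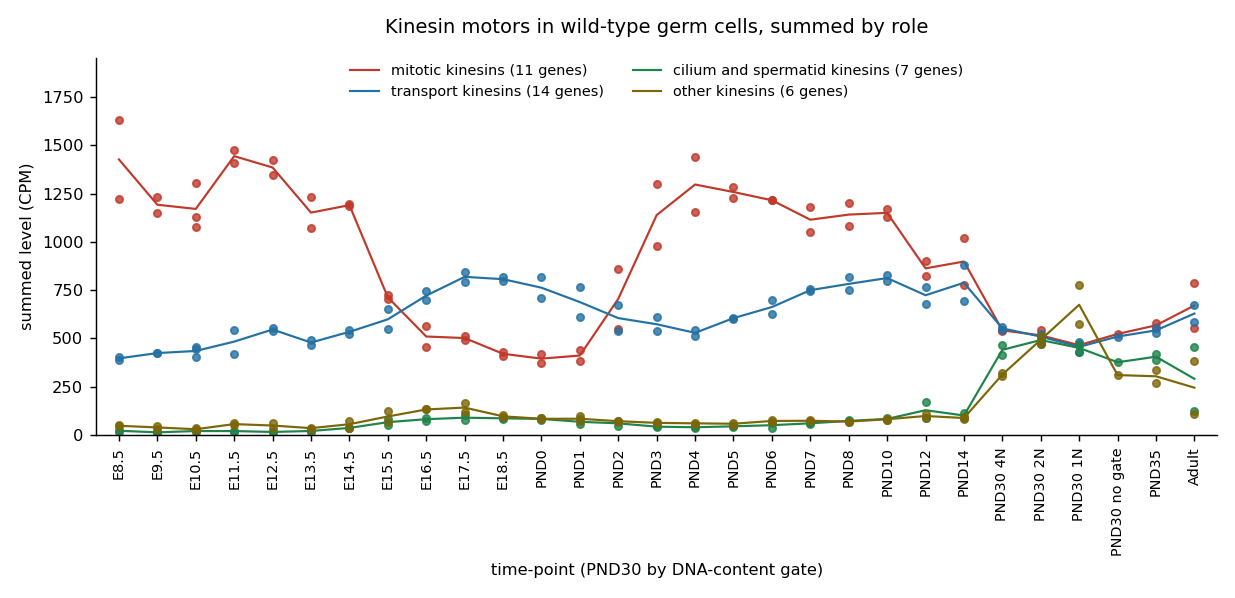
Summed CPM of the mitotic, transport, cilium and spermatid, and other kinesins in each pool from E8.5 to adult, with PND30 split by DNA content; points are pools and lines run through the means. The mitotic sum is 1185 CPM or more at E14.5, 373 CPM in the lowest PND0 pool and 977 CPM or more from PND3 to PND7, and the cilium and spermatid sum is 414 CPM or more in each gated PND30 pool.

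The mitotic kinesins are the spindle motors Kif11 (a tetramer that pushes spindle poles apart) and Kif15, the chromokinesins Kif4 and Kif22, the kinesins Kif18a and Kif18b, which act on chromosome alignment and astral microtubules, the depolymerase Kif2c, and the cytokinesis kinesins Kif14, Kif20a, Kif20b and Kif23. Promoter windows from RefSeq (GRCm38.p6, 250 bases before to 50 after the start) were found for 31 of the motors, 10 of them mitotic. The letters TTTGAA, searched on both strands, occurred in 9 of these 10 mitotic windows (not in that of Kif18a) and in 20.2% of the windows of 27025 genes. They occurred in 1 of 6 cilium and spermatid, 1 of 10 transport and 1 of 5 other kinesin windows. TTTGAA is the core of the element known as the cell cycle genes homology region. The 70 bases before the RefSeq start of 3 mitotic kinesins are shown because the match lies at a similar distance from it in each. The reverse complement of this core stands in capitals. Kif11 lies at chr19:37376312-37376381 on the + strand, Kif15 at chr9:122951011-122951080 on the + strand and Kif22 at chr7:127042421-127042490 on the - strand.
Kif11: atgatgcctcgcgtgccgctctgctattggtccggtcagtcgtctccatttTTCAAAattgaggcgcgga
Kif15: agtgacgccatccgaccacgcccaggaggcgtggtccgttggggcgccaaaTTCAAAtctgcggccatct
Kif22: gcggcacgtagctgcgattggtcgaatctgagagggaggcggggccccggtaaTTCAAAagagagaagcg
The match begins 19 bases before the RefSeq start in Kif11 and Kif15 and 17 bases before it in Kif22. GENCODE M21 starts Kif11 at 37376403, Kif15 at 122951046 and Kif22 at 127042471. By these starts the Kif15 and Kif22 matches lie inside the gene and the Kif11 match before it. A match is a description of the letters and was not tested for binding or activity.

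The comparison of gonadal with migrating germ cells asked whether the kinesins change when the germ cells settle in the gonad while still dividing. The mitotic kinesins did not pass the test in either direction: the sum was 1250 ± 185 CPM (SD, n = 7) before and 1327 ± 151 CPM (n = 6) after, and 0 of 11 members were called in the edgeR quasi-likelihood test with Benjamini-Hochberg adjustment (1 at an unadjusted p under 0.05, and 0 in DESeq2). Their median log2 fold change was 0.15, beside 0 for all genes. Of the 40 family genes, 3 were higher and 0 lower, all 3 of them transport kinesins, where 6.76% of the 26668 genes tested were higher, 6.33% lower and 13.1% either. Kif16b, which moves early endosomes, was at 8.56 to 20.4 CPM (median 18.7) in migrating and 29.3 to 42.02 CPM (median 32.99) in gonadal germ cells, with no overlap (log2 fold change 1.10, SE 0.24, adjusted p = 0.00162). Kif21a, which restrains microtubule growth, went from 11.2 to 34.3 CPM (median 16.02) to 13.6 to 80.7 CPM (median 47.5), with overlap (1.19, SE 0.23, adjusted p = 0.000395). Kif3a, the kinesin-2 subunit of intraflagellar transport, went from 87.1 to 146.9 CPM (median 110) to 123.4 to 210 CPM (median 171), also with overlap (0.62, SE 0.14, adjusted p = 0.00167). At an unadjusted p under 0.05, 10 members were higher and 2 lower. The number called higher was 3 to 6 and the number called lower 0 to 2 when a pool was left out, and DESeq2 called 6 and 2.

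In arrested germ cells all 11 mitotic kinesins were lower than in gonadal germ cells, and the groups of all but Kif18b and Kif23 did not overlap. Of the 40 family genes 18 were higher and 10 lower without overlap, and the share over all genes was not computed. In the whole family 20 of 40 were higher and 14 lower, where 45% of all genes tested were higher, 20.4% lower and 65.4% either. Fetal male germ cells are known to leave the cell cycle in the testis during this interval. Kif11 was at 174 and 203 CPM at E11.5, 160 and 190 at E12.5 and 128.1 and 138.4 at E13.5, and at 16.6 and 25.6 CPM at E16.5, 23.8 and 28.05 at E17.5, 27.6 and 16.7 at E18.5 and 42.6 and 23.5 at PND0. It fell by 3.14 on the log2 scale (SE 0.23, adjusted p = 1.6e-13, edgeR quasi-likelihood test). Every arrested pool was below every gonadal pool. Kif2c, which removes faulty attachments of microtubules to kinetochores, went from 127.3 to 183 CPM (median 144.8) to 19.7 to 34.9 CPM (median 24.7) and fell by 3.04 (SE 0.19, adjusted p = 5.7e-15). Kif15 fell by 2.49 (SE 0.17, adjusted p = 2.27e-14), from 117.97 to 175 CPM to 24.01 to 46.3 CPM. The X-linked Kif4 fell by 2.50 (SE 0.30, adjusted p = 9.05e-09), from 42.1 to 70.1 CPM to 9.69 to 15.9 CPM.

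The cytokinesis kinesins fell by unequal amounts. Kif20a fell by 2.42 (SE 0.41) from a low level of 7.76 ± 2.62 CPM (SD, n = 6), Kif20b by 1.65 and Kif14 by 1.53. Kif23, the motor of the central spindle, fell by 1.08 (SE 0.16, adjusted p = 4.26e-07), from 117.6 ± 32.02 CPM to 73.8 ± 11.55 CPM (n = 8), and so kept the highest share of its gonadal level in CPM. Kif22, Kif18a and Kif18b fell by 1.86, 1.84 and 1.80. The median of the list was -1.86, beside 1.57 for all genes tested, a shift that was 1.94 with library sizes alone and 1.81 with RLE size factors. Relative to that median Kif11 was at -4.71 and Kif23 at -2.65, and all 11 members were below it. Of the 14 partners of mitotic kinesins, 13 were lower, led by Plk1 (-4.38), Cdk1 (-3.79) and Birc5 (-3.52), where 20.4% of all genes were lower. Of the 4 minus-end kinesins, 3 were lower, among them Kifc1 (-2.30), which focuses spindle poles.

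**Figure D2:**
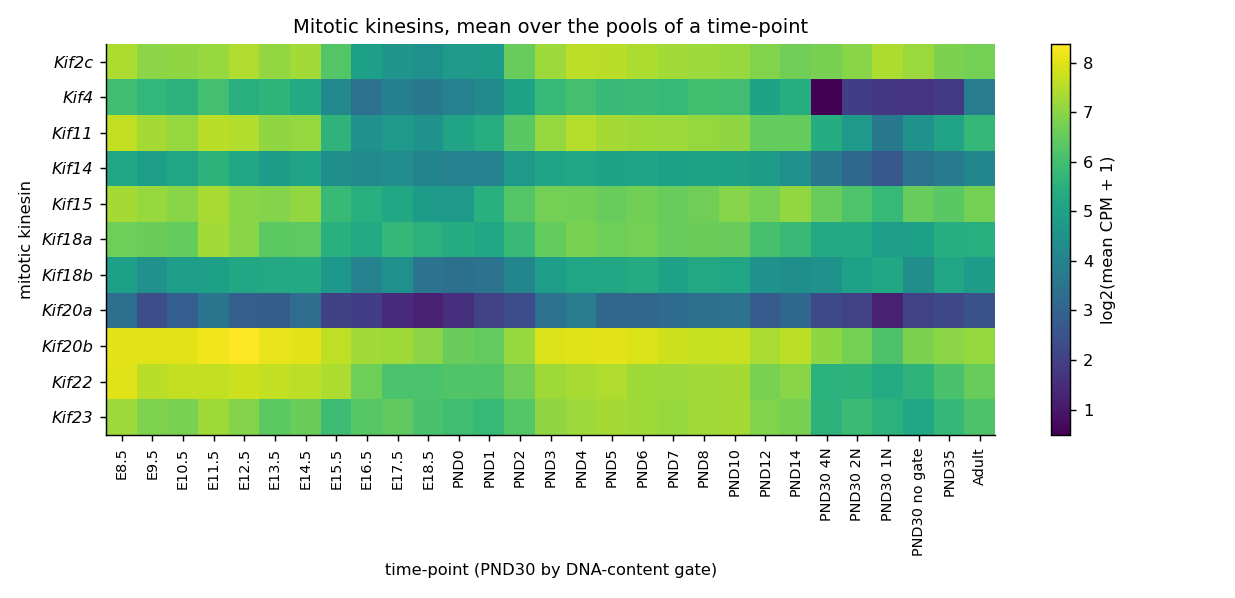
Heatmap of log2(mean CPM + 1) of the 11 mitotic kinesins at each time-point. Most members are lower from E15.5 to PND1 and again in the PND30 gates, where Kif4 has its lowest mean (0.406 CPM in 4N cells) while Kif2c is at 105.1 CPM or more.

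The lower level was reached over few days. The mitotic sum was 1195 and 1185 CPM in the E14.5 pools, 701 and 724 CPM at E15.5 and 456 and 563 CPM at E16.5. It was lowest at PND0, at 417 and 373 CPM. Somatic cells of the same gonads were measured beside them: in the 6 pools of the reporter-negative gate from E16.5 to E18.5 the mitotic sum was 594 to 1613 CPM and Kif11 was at 46.4 to 182 CPM (median 95.3), above every germ cell pool of the same days. Somatic marker RNA was also higher in the arrested than in the gonadal germ cell pools. The sum of 9 Sertoli markers was 135.01 to 511 CPM against 30.05 to 66.1 CPM, that of 9 interstitial and peritubular markers 86.5 to 255 against 1.68 to 34.3 CPM, that of 5 Leydig markers 15.9 to 610 against 2.37 to 47.1 CPM and that of 9 blood markers 273 to 661 against 18.9 to 498 CPM. The sum of 7 visceral endoderm and mesoderm markers was 375 to 554 against 3.91 to 75.5 CPM and that of 5 endothelial markers 166 to 276 against 51.4 to 111.1 CPM. All of these markers had a UMI in both groups. In PND30 4N cells the endoderm and mesoderm sum was 427 to 565 CPM, while the endothelial sum was 4.14 to 5.76 CPM. Which cells gave the endoderm and mesoderm sum was not tested.

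In spermatogonia all 11 mitotic kinesins were higher than in the arrested germ cells, a group that both comparisons share. In the family 14 were higher and 11 lower, where 22.7% of all genes were higher, 34.7% lower and 57.3% either. The sum was 549 and 860 CPM at PND2 and 977 to 1442 CPM from PND3 to PND7. Kif2c was at 19.7 to 34.9 CPM (median 24.7) in arrested germ cells and 133.9 to 207 CPM (median 169) in spermatogonia (log2 fold change 3.17, SE 0.18, adjusted p = 1.83e-15). Kif11 rose by 3.02 (SE 0.22, adjusted p = 1.84e-13) to 120 to 185 CPM, Kif20a by 2.66 (SE 0.39, adjusted p = 7.14e-07) and Kif4 by 2.60 (SE 0.28, adjusted p = 1.88e-09). No arrested pool reached the lowest spermatogonial pool for Kif2c or Kif11. The other 7 rose by 1.33 (Kif20b) to 2.00 (Kif15). The median was 1.75, beside -0.52 for all genes, a shift that was -0.87 with library sizes alone and -0.86 with RLE. All 11 mitotic members were above it. Of the 14 partners 13 were higher, led by Plk1 (4.30), Cdk1 (3.57) and Aurkb (3.39).

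Among the transport kinesins the arrested germ cells differed from the gonadal ones in both directions. Of the 14 transport kinesins 9 were higher and 2 lower, or 64.3% and 14.3%, where 45% of all genes were higher and 20.4% lower. Their median was 0.75 beside 1.57 for all genes, and 8 of the 14 lay below the latter. The conventional kinesin heavy chains parted: Kif5a, which is best known from neurons, was at 1.29 to 7.004 CPM (median 3.06) in gonadal and 46.1 to 70.5 CPM (median 53.9) in arrested germ cells (log2 fold change 3.40, SE 0.42, adjusted p = 2.41e-08), and Kif5c rose from 14.7 ± 6.04 CPM (n = 6) to 65.9 ± 22.7 CPM (n = 8; 1.77, adjusted p = 9.48e-08). The ubiquitous Kif5b fell by 1.04 (SE 0.19, adjusted p = 1.97e-05), from 140 to 211 CPM to 95.4 to 136.6 CPM. The groups of Kif5a and Kif5c did not overlap, and those of Kif5b did not either. Relative to the median of all genes tested, whatever their level, Kif5a was at 1.83, Kif5c at 0.205 and Kif5b at -2.61. In the reporter-negative somatic cells from E16.5 to E18.5 Kif5b was at 344 to 537 CPM and Kif5a had a median of 1.06 CPM.

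Kif1a, the motor of synaptic vesicle precursors, was at 0 to 0.888 CPM in gonadal and 7.81 to 42.6 CPM (median 18.46) in arrested germ cells (6.45, SE 0.92, adjusted p = 2.88e-07), but somatic cells of the same gonads had a median of 16.6 CPM. Its relatives Kif1b (1.69, adjusted p = 8.43e-10) and Kif1c (2.39, adjusted p = 0.000144) rose as well. Relative to the median of all genes Kif1b was at 0.123 and Kif1c at 0.818. Kif3c, a kinesin-2 subunit, had 7 UMIs in all gonadal pools, or 0.042 CPM on average, and 5.33 ± 1.81 CPM (n = 8) in arrested germ cells. Kif16b, which was called higher in the gonadal stage, fell by 1.15 (adjusted p = 5.96e-05). The rises of Kif13b (0.51), Kif21b (0.81) and Kif3a (0.31, adjusted p = 0.0401) are less than the median of all genes, and that of Kif3a was -0.04 without E11.5 replicate 2 or without E13.5 replicate 1. In plain CPM Kif3a went from 165 ± 33.7 to 276 ± 32.95. CPM and fitted changes differ because the fit rescales pools by the trimmed mean of M values (TMM).

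After birth 4 transport kinesins were lower and 2 higher in spermatogonia than in arrested germ cells, or 28.6% and 14.3% of the 14, where 34.7% of all genes were lower and 22.7% higher. Their median was 0.07 beside -0.52 for all genes. In spermatogonia Kif1a fell by 2.97 (SE 0.60, adjusted p = 8.13e-05) to 0.481 to 3.29 CPM, Kif13a by 1.55, Kif21a by 1.48 and Kif5a by 1.00 (adjusted p = 0.0088), to 14.4 to 33.5 CPM. Kif5b rose by 0.81 (adjusted p = 0.000168) and Kif1b by 0.78 (adjusted p = 4.84e-05). Kif5c (0.005, adjusted p = 1) and Kif3a (0.025, adjusted p = 0.977) did not pass the test, and both had mean levels above those of the gonadal stage, at 51.3 ± 21.4 and 216 ± 43.9 CPM (n = 10).

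**Figure D3:**
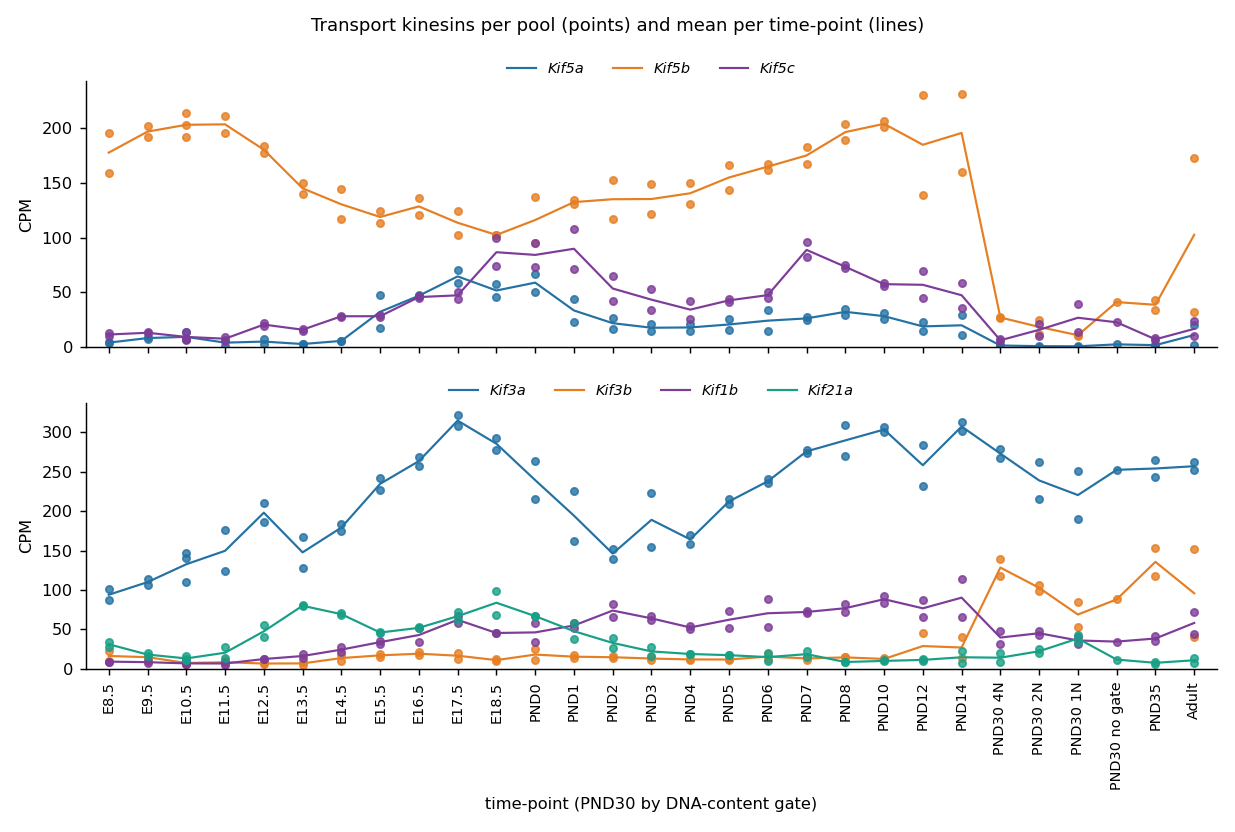
CPM of Kif5a, Kif5b and Kif5c (top) and of Kif3a, Kif3b, Kif1b and Kif21a (bottom) in each pool (points) by time-point, with lines through the means. Kif5a is at 46.1 CPM or more in the 8 arrested pools and at 1.56 CPM or less in 4N cells, while Kif5b is at 95.4 CPM or more in the arrested pools and at 27.4 CPM or less in each gated PND30 pool.

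The cilium and spermatid kinesins were already higher in the arrested germ cells, at low levels. Their sum was 18.02 ± 5.40 CPM (SD, n = 6) in gonadal and 84.4 ± 8.90 CPM (n = 8) in arrested germ cells, and 5 of 7 members were higher and 1 lower, where 45% of all genes were higher and 20.4% lower. The median of the 7 was 3.53 beside 1.57 for all genes. Germ cell markers of later stages moved with them: the sum of 10 spermatid markers was 65.9 to 135.04 CPM in arrested and 3.19 to 7.97 CPM in gonadal germ cells, where Acr was at 0, and that of 10 spermatocyte markers was 1189 to 1664 against 670.4 to 970.4 CPM. Their part in this result was not tested. Kif17, known as a motor of ciliary membrane proteins and of a transcriptional coactivator in spermatids, had 5 UMIs in all gonadal pools and was at 7.56 to 18.7 CPM (median 11.9) in arrested germ cells. Kif9, a motor of the central apparatus of the sperm tail, went from 0.099 to 2.71 CPM to 10.9 to 19.4 CPM (median 17.49; log2 fold change 3.53, SE 0.51, adjusted p = 3.23e-07). Kif27, needed for motile cilia, rose by 3.71 (SE 0.44, adjusted p = 6.32e-09) to 13.3 to 31.04 CPM, Kif6 by 4.001 (SE 0.60, adjusted p = 6.11e-07) and Kif7, a regulator of Hedgehog signalling, by 2.20. For Kif17, Kif9, Kif27 and Kif6 every arrested pool was above every gonadal pool. In the somatic cells of the same gonads the medians were 0.325 CPM for Kif17, 3.37 for Kif9, 0.953 for Kif27 and 2.04 for Kif6, and the whole list summed to 10.4 to 36.6 CPM.

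Kif24, which holds back the formation of cilia at the centriole, went the other way. It fell by 1.95 (SE 0.29, adjusted p = 5.9e-07) in arrested germ cells, from 11.1 ± 3.501 CPM to 4.42 ± 2.47 CPM, and rose by 1.76 (SE 0.27, adjusted p = 1.27e-06) in spermatogonia. Kif9, Kif17 and Kif6 fell in spermatogonia by 1.34, 1.297 and 1.04. Of these, Kif17 (adjusted p = 0.0153) did not pass without E17.5 replicate 2 (-1.10), and Kif6 (adjusted p = 0.0403) did not pass when any of 13 pools was left out. Kif27 did not pass (-0.21, SE 0.32). The 17 intraflagellar transport genes moved both ways in the arrested germ cells, with 7 higher and 5 lower, led by Ift43 (1.91) and Ift52 (-3.47), where 45% of all genes were higher and 20.4% lower, and had a median of 0.15 beside 1.57 for all genes.

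The promoter window of Kif17 held the full cyclic AMP response element TGACGTCA, which 2.03% of the windows of all genes hold. Among the motors it was also found in Kif5c and Kif18a. The 70 bases of the Kif17 window at chr4:138262131-138262200 on the + strand, GRCm38.p6, are shown because the motor is known to carry a coactivator of factors that bind this element, which stands in capitals.
Kif17: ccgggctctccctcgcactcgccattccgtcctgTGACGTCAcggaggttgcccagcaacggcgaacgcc
The element begins 86 bases before the RefSeq start. GENCODE M21 starts Kif17 further upstream, at 138250435, so by that start the element lies inside the gene. The letters GTTGCC, part of the motif of RFX factors, were in 3 of 6 cilium and spermatid kinesin windows (Kif9, Kif17 and Kif24), 4 of 10 transport, 2 of 10 mitotic and 1 of 5 other kinesin windows, and in 14.1% of all windows.

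PND30 4N cells, which are mainly spermatocytes, were compared with spermatogonia to ask which kinesins change as germ cells enter meiosis. The cilium and spermatid kinesins were higher in 4N cells: their sum was 46.98 ± 10.4 CPM (SD, n = 10) in spermatogonia and 466.2 and 414.4 CPM in the 4N pools. Of 7 members 4 were higher and 0 lower, with a median log2 fold change of 2.90 beside 0.07 for all genes. In the family 11 were higher and 13 lower, where 37.3% of all genes were higher, 27.3% lower and 64.6% either. All 17 intraflagellar transport genes were higher (median 2.40), led by Ift172 (4.27), Ift140 (4.16) and Ift22 (3.90). The sum of the spermatid markers was also higher in these pools, as given above, and its part in these rises was not tested.

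Kif9 was at 3.40 to 7.75 CPM (median 4.53) in spermatogonia and at 294 and 289 CPM in the 4N pools (log2 fold change 6.45, SE 0.51, adjusted p = 1.2e-12, edgeR quasi-likelihood test). It was at 314 and 274 CPM in 2N and 300 and 252 CPM in 1N cells, so the 3 gates overlapped. Kif27 was at 6.89 to 20.6 CPM in spermatogonia and at 88.4 and 56.8 CPM in the 4N pools (2.90, SE 0.44, adjusted p = 7.02e-07). Kif17 went from 2.40 to 8.95 CPM to 35.5 and 17.4 CPM (3.23, SE 0.62, adjusted p = 3.09e-05) and Kif6 from 4.19 to 7.12 CPM to 30.2 and 29.5 CPM (3.03, SE 0.59, adjusted p = 3.83e-05). These 4 had no overlap with spermatogonia, which was common in the family. Of all family genes, 8 were higher and 19 lower without overlap, and 13 overlapped. The share over all genes was not computed. Kif7 (0.95, adjusted p = 0.0704), Kif24 (0.56, adjusted p = 0.216) and Kif19a (1.14, adjusted p = 0.225), which limits the length of cilia, did not pass.

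The kinesin-13 depolymerases Kif2b and Kif2a and the kinesin-2 subunits Kif3b and Kif3a rose beside them. Kif2b, a gene of chromosome 11 (91575315 to 91577558, GRCm38), had 0 to 0.664 CPM in spermatogonia and 136.2 and 76.4 CPM in the 4N pools (9.27, SE 0.86, adjusted p = 5.98e-10). Its relative Kif2a rose by 2.46 (SE 0.24, adjusted p = 1.51e-10), from 44.9 to 70.2 CPM to 184 and 226 CPM, while Kif2c did not pass the test, with 133.9 to 207 CPM before and 110 and 105.1 CPM after (-0.12, SE 0.27, adjusted p = 0.747). The value of Kif2c depended on scaling, at 0.16 with RLE size factors and -0.66 (adjusted p = 0.00989) with library sizes alone. Kif3b, the partner of Kif3a in anterograde intraflagellar transport, went from 10.7 to 18.2 CPM to 117.9 and 138.9 CPM (3.85, SE 0.36, adjusted p = 7.02e-11), and Kif3a from 155 to 277 CPM to 279 and 267 CPM (0.90, SE 0.18, adjusted p = 3.9e-05). The kinesin-2 subunit Kif3c was lower (-2.80, adjusted p = 0.0456).

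**Figure D4:**
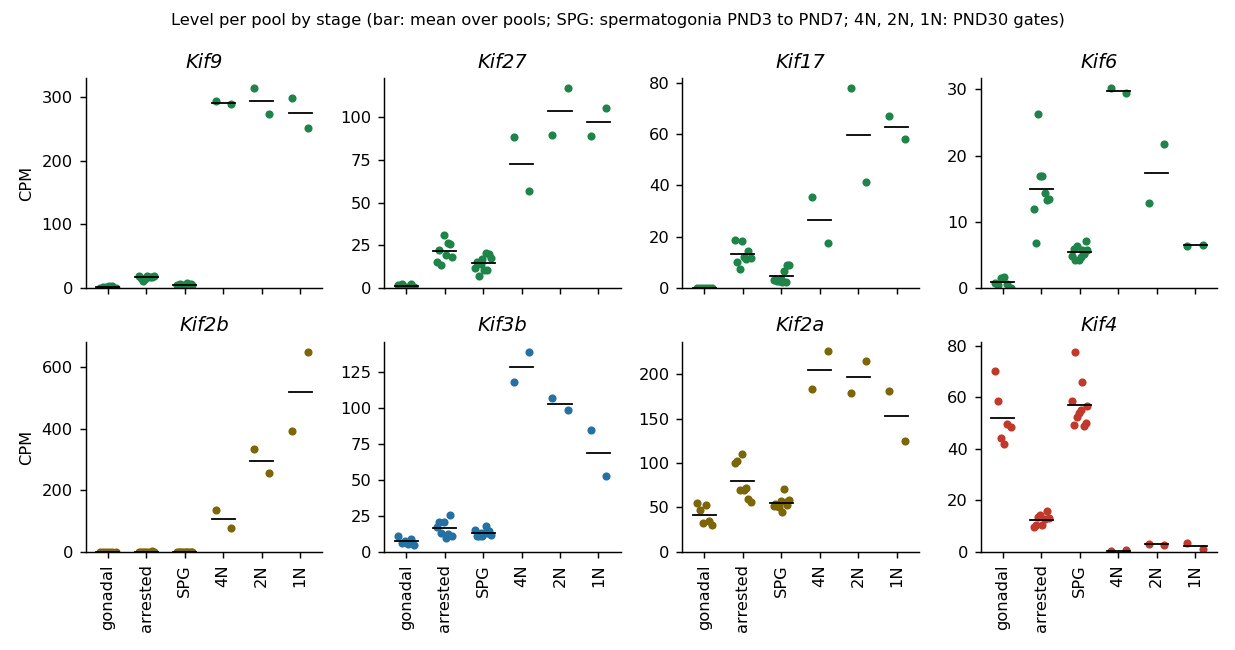
CPM of Kif9, Kif27, Kif17, Kif6, Kif2b, Kif3b, Kif2a and Kif4 in each pool (points) of the gonadal and arrested germ cells, the spermatogonia (SPG) and the PND30 gates, with the mean as a bar and 1 linear axis per gene. Kif9 is at 252 to 314 CPM in the 3 gates, whereas Kif2b is at 76.4 and 136.2 CPM in 4N and 391 and 648 CPM in 1N cells.

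Of the mitotic kinesins 6 were lower in 4N cells and 5 did not pass, where 27.3% of all genes were lower and 37.3% higher. The list median was -0.80, beside 0.07 for all genes. Kif4 changed most: it was at 48.9 to 77.6 CPM (median 54.6) in spermatogonia and at 0.295 and 0.518 CPM in the 4N pools (-6.62, SE 0.68, adjusted p = 3.44e-10). Kif4 is the single member on chromosome X, where the median log2 fold change of 968 genes was -3.23, beside 0.10 on the autosomes, and 53% were called lower, beside 26.5%. Kif11 fell by 1.40 (SE 0.35, adjusted p = 0.000764), from 120 to 185 CPM to 50.8 and 30.7 CPM, Kif22 by 1.25, Kif23 by 1.09, Kif14 by 0.97 and Kif18a by 0.80. Kif15 was at 81.9 to 116.5 CPM in spermatogonia and 90.2 and 94.6 CPM in the 4N pools (0.45, adjusted p = 0.078, and -0.09 with library sizes alone). Kif20a (-0.71), Kif20b (-0.36) and Kif18b (-0.08) did not pass. Of the 14 partners 5 were lower and 2 higher, Aurka (1.25) and Birc5 (0.78).

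Several transport kinesins fell to low levels at the same step. Kif5b was at 121.6 to 183 CPM in spermatogonia and at 26.7 and 27.4 CPM in the 4N pools (-1.96, SE 0.33, adjusted p = 3.13e-06), Kif5a fell by 3.31 (SE 0.69, adjusted p = 8.34e-05), to 1.56 and 1.35 CPM, and Kif5c by 2.40 (SE 0.39, adjusted p = 2.16e-06), to 5.17 and 7.29 CPM. So the 3 conventional heavy chains were all lower in 4N cells. Median somatic marker sums in spermatogonia and 4N pools were 302.6 and 9.17 CPM (Sertoli), 197.9 and 9.74 (interstitial and peritubular) and 143.3 and 4.95 (endothelial). The visceral endoderm and mesoderm sum was not lower (445.02 and 496.02 CPM). In the reporter-negative somatic cells from E16.5 to E18.5 Kif5b was at 344 to 537 CPM. Kif5a and Kif5c there had medians of 1.06 and 9.04 CPM. The part of somatic RNA in the falls from spermatogonia to 4N cells was not tested. Kif1c fell by 4.63 (SE 0.96, adjusted p = 7.88e-05). The other kinesin Kif26a, with 3438 UMIs in spermatogonia, had 3 UMIs in the 4N pools. Among the light chains and adaptors, Klc1 (-1.81) and Trak2 (-2.54) were lower and Trak1 (2.82), Kifap3 (1.58), the accessory subunit of kinesin-2, and Klc2 (1.56) higher. Kifc1 fell by 2.42 and Kifc3 rose by 6.10. The calls of Kif13b and Kif3c were lost under several settings, and 2 pools of 4N cells limit the precision of this comparison.

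**Figure D5:**
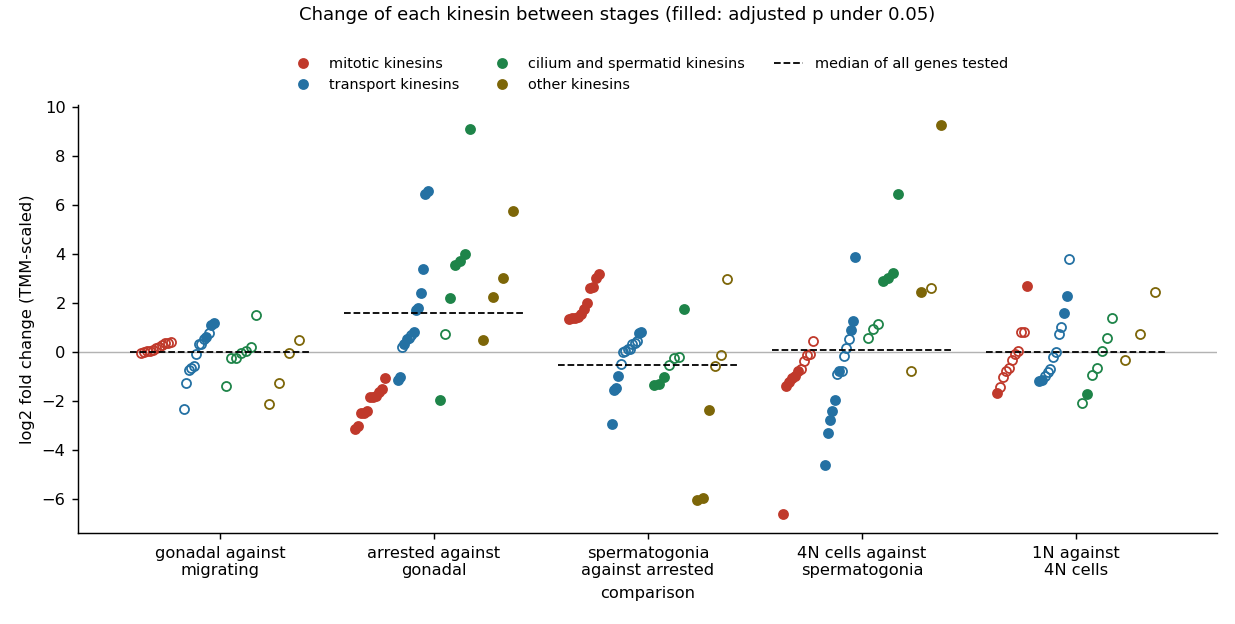
Log2 fold change of each kinesin in the 5 comparisons, coloured by role and filled where the adjusted p is under 0.05, with the median of all genes tested as a dashed line. Genes with 3 or fewer UMIs in a group are left out. The mitotic members lie below 0 in arrested against gonadal germ cells and above 0 in spermatogonia against arrested germ cells, and the 7 cilium and spermatid members lie above the median of all genes in 4N cells against spermatogonia.

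The comparison of 1N with 4N cells, which asks what changes from spermatocytes to haploid spermatids, rests on 2 pools a gate. In the family 3 were higher and 5 lower, where 5.31% of all genes were higher, 10% lower and 15.3% either. In 1N cells Kif2b had the highest level of any kinesin, at 391 and 648 CPM. It was at 333 and 256 CPM in 2N cells and 136.2 and 76.4 CPM in 4N cells. Its gates did not overlap between 1N and 4N, but the log2 fold change of 2.45 (SE 1.27, adjusted p = 0.225) did not pass the test (adjusted p = 7.16e-04 in the edgeR version 4 fit). The cilium and spermatid kinesins had 0 members higher and 1 lower (0 and 2 at an unadjusted p under 0.05, 0 higher in DESeq2): Kif9 had 0.03 (adjusted p = 1) and -0.08 with library sizes alone, Kif27 0.56 (adjusted p = 0.643) and Kif17 1.38 (adjusted p = 0.397). Kif6 was at 30.2 and 29.5 CPM in 4N and 6.401 and 6.54 CPM in 1N cells (-2.08, SE 0.95, adjusted p = 0.153).

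The members called higher in 1N cells were Kif4, at 3.502 and 1.25 CPM (2.68, SE 0.61, adjusted p = 0.00207), Kif5c, at 13.8 and 39.7 CPM (2.26, SE 0.44, adjusted p = 0.00037), and Kif21a, at 33.6 and 43.1 CPM (1.598, SE 0.42, adjusted p = 0.00715). The X-linked genes had a median of 1.84 in this comparison, beside 0 on the autosomes. The members called lower were Kif11, at 15.2 and 8.51 CPM (-1.67, SE 0.42, adjusted p = 0.00482), Kif24 (-1.71, adjusted p = 0.0292), Kif5b (-1.20, adjusted p = 0.022), Kif13b (-1.16, adjusted p = 0.0225) and Kif3c, which had 21 UMIs in the 4N and 0 in the 1N pools, at least 4.58-fold lower. Each of these 8 calls was lost when one of the 4 pools was left out: for Kif5c this was 1N replicate 2 (1.21), and for Kif11 it was 4N replicate 1 (-1.27) or 1N replicate 2 (-1.34). Of the 11 mitotic kinesins, whose median was -0.32 beside 0, 9 were not called and lay between -1.44 (Kif20a) and 0.82 (Kif18b). Kif2c, at 128.99 and 208 CPM in 1N cells, was not called (0.79, adjusted p = 0.124) but was with RLE size factors (1.29). Of the 14 partners 7 were lower and 0 higher, led by Prc1 (-2.40), Aurkb (-2.08) and Cdk1 (-2.07). Of the 17 intraflagellar transport genes 4 were lower, where 10% of all genes were lower and 5.31% higher. The replicate numbers of the PND30 gates name the same animals, and with the replicate block the call of Kif3c was lost (adjusted p = 0.0508).

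The remaining members were low or changed in few comparisons. Kif28 was at 3.14 to 14.2 CPM in arrested germ cells and at 0.564 CPM or less in spermatogonia (-6.05, SE 1.022, adjusted p = 1.02e-05), with 155 exon bases shared with Ahctf1 on the same strand. Kif26b rose by 3.00 and fell again by 2.37, with medians of 0.700, 7.46 and 1.35 CPM in gonadal, arrested and spermatogonial pools. In the reporter-negative somatic pools it was at 40.5 and 18.1 CPM at E16.5 and at 0.341 to 1.22 CPM at E17.5 and E18.5. Kif12 had a UMI in 24 of the 58 pools, with 343 UMIs in arrested and 1 in gonadal germ cells. Kif16bos rose to 10.4 and 7.18 CPM in 4N cells (5.07, adjusted p = 1.08e-06) and was at 23.3 and 51.8 CPM in 1N cells. Kif1bp was 0.76 lower in spermatogonia and 1.22 higher in 4N cells, the last lost without 4N replicate 1. Whether reads were counted by strand is not given in the sources used here. In all, 14 members share exon bases with another gene. Of these, 2 share them on the same strand: Kif28, as given above, and Kif17 with Sh2d5 (74 bases). Among the others are Kif3c with 1110002L01Rik (2617 bases), Kif20a with Cdc23 (1271), Kif2a with Dimt1 (1229) and Kif4 with Pdzd11 (832). Reads from bases shared across strands cannot be told apart without strand.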

How the data were processed

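The deposited table gave whole UMI counts per gene and cell for 13032 cells of 147 libraries. Per the labels and the methods, the authors read the cell barcode and UMI, aligned reads to mm10 with STAR, assigned unique alignments to genes with featureCounts and collapsed duplicates by UMI; the count is 1 per molecule and not normalized. Tools named in the submitters' notes were CASAVA 1.8, STAR, Subread, featureCounts and UMI-tools, and the strand setting is not given in the sources used here.

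The labels name no condition, so time-point, genotype, sorting gate and replicate were taken from the cell names and the deposited table of cells. Of 11896 wild-type cells, 11598 had over 2000 genes and 10000 to 1000000 UMIs, the filter stated by the study, and 9400 of these were in the germ cell gates or picked after birth. A cell was kept as a germ cell if its germ cell marker score exceeded the highest of its somatic, blood and endoderm scores (log scale, pseudocount 1). In all, 8452 were kept. The authors' label was read for only a part of the 9400 cells. In that part 1500 of 1518 cells labelled germ cells were kept. Of those labelled somatic, 3 of 339 outside the BV gate of E11.5 replicate 1 were kept. Of the 32 cells of that gate 29 were kept. No pool remained of E8.5 replicate 1 (0 of 48 cells). Counts were summed per time-point, replicate and, at PND30, gate, with at least 10 cells, and the ungated PND30 pool was described and not tested. Cells were picked singly and no doublet caller was run. Each of the 96 plate barcodes was used in more than 1 library, and no pair of library and barcode was repeated. The number of unused columns of single samples was 0.

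Pools were compared with edgeR 4.0.16 (R 4.3.3, limma 3.58.1): filterByExpr with a minimum count of 10, TMM scaling, dispersions from estimateDisp, a quasi-likelihood fit over 28 groups and contrasts of group means, with Benjamini-Hochberg adjustment over the 26668 genes tested and a threshold of 0.05. The replicates are separate collections of embryos or gonads or, after birth, single mice, and cells are not replicates. On simulated counts for the 26668 genes with 200 changed, 4-fold changes were recovered in 50%, 66%, 66%, 35% and 21% and 2-fold changes in 27%, 31%, 32%, 10% and 4% of cases in the comparisons as ordered in the text, with 1 to 3 false calls. In this simulation the edgeR version 4 fit gave 49 false of 110 calls for 4N cells, and it was kept as an alternative. The simulated pools shared the same mean levels except for the 200 genes, which rose and fell in equal numbers. Such counts cannot show how many calls are false where most genes change. In arrested against gonadal germ cells 65.4% of genes were called. Alternatives were RLE or library size scaling, DESeq2 1.42.0, no low-count filter, a 2-fold minimum, no marker or cell filter, a stricter marker rule, equal weight per cell, the replicate block, without the BV gate cells, without the PND12, PND14, PND35 and adult pools, and without each pool, where the trended dispersion was kept and a lone pool was assumed to vary like the others.

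By the study's sample information each postnatal replicate is 1 animal, so the same-numbered PND30 gates share an animal: differences between replicates correlated by 0.319 (4N and 2N), 0.108 (4N and 1N) and 0.222 (2N and 1N) over genes. The members, roles and lists were chosen with earlier results of these data known. Any member could be named. In each comparison these were the mitotic list and, for 4N and 1N cells, the cilium and spermatid list, the 5 members with the largest rises and falls past the threshold, and the 3 largest in each direction of each other list. Positions came from GENCODE M21 (GRCm38; 40 members matched) and promoters from RefSeq. Python 3.11.15, numpy 2.4.6, pandas 2.3.3 and matplotlib 3.10.9 were used. Intervals and floors cover counting error only.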

Additional observations from a re-analysis of the deposited data

Results flagged for a closer look

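Of 74 combinations of a member or sum and a stage with 6 to 10 pools, 7 held a pool far from the others by Dixon's criterion, which chance gives in about 5% of groups. The 15-cell pool E8.5 replicate 3 held 5 of them within the migrating germ cells: Kif22 was at 296 CPM (others 186 to 205), Kif23 at 174 CPM (91.5 to 123.7), Kif2c at 204 CPM (123.3 to 145.5), the mitotic sum at 1633 CPM (1078 to 1303) and Kif5b at 159 CPM (191 to 214). In arrested germ cells Kif11 was at 42.6 CPM in PND0 replicate 1 (others 16.6 to 28.05). Kif21a was at 99.2 CPM in E18.5 replicate 2 (others 51.2 to 71.8).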

How the results depend on the processing

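The mitotic calls of the arrested and spermatogonial comparisons held for all 11 members under every alternative run. Gonadal against migrating germ cells gave 5 members higher with equal weight per cell or without the PND12, PND14, PND35 and adult pools and 6 in DESeq2, and lower 2 without the marker rule or in DESeq2 and 1 with equal weight per cell, without the BV gate cells or without the PND12, PND14, PND35 and adult pools. In 4N cells 1 mitotic kinesin, Kif15, was higher with RLE, no low-count filter, equal weight per cell or DESeq2, and its change was -0.088 with library sizes alone. Kif2c there was -0.12, and 0.16 with RLE, 0.021 without the low-count filter, 0.15 with equal weight per cell and 0.16 in DESeq2. In 1N cells the members higher were 6 with RLE or the edgeR version 4 fit, 5 with equal weight per cell and 7 in DESeq2, and those lower were 1 with RLE or without the marker rule, 8 with library sizes alone and 3 with equal weight per cell; Kif9 was -0.079 with library sizes alone. As a mean over cells the mitotic sums were 509 CPM in 4N and 460 CPM in 1N cells and the transport sum was 491 CPM in 2N cells. The cause of these differences was not tested.

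With each pool left out, members higher and lower ranged from 3 to 6 and 0 to 2 in gonadal, 16 to 21 and 14 to 14 in arrested germ cells, 14 to 16 and 10 to 11 in spermatogonia, 10 to 12 and 11 to 14 in 4N and 1 to 4 and 1 to 1 in 1N cells. The members higher in gonadal germ cells were 6 without E8.5 replicate 2 and 5 without E10.5 replicate 3, and those lower were 2 without E11.5 replicate 1 and 1 without E8.5 replicate 3, E10.5 replicate 3, E11.5 replicate 2 or either E12.5 replicate. In 1N cells 1 member was higher without 1N replicate 2, and 1 was lower without any of the 4 pools. The mitotic calls stayed at 11 in both arrested and spermatogonial comparisons and at 6 lower in 4N cells. Kif3a in arrested germ cells ranged from -0.042 without E13.5 replicate 1 (-0.035 without E11.5 replicate 2) to 0.495. With the replicate block, 9476 genes were higher and 6755 lower in 4N cells and 1382 and 2674 in 1N cells, and no call of a member but Kif3c (adjusted p = 0.0508) changed. Over all genes, 1417 were higher in 1N cells and 2670 lower, against 2621 and 1709 with RLE, 3601 higher in DESeq2, 2545 with the edgeR version 4 fit and 2396 with equal weight per cell, so 34.7% of calls were higher, 60.5% with RLE, 62.5% in DESeq2 and 26.6% with library sizes alone. In gonadal germ cells 1802 were higher and 1688 lower, against 1023 higher with the version 4 fit and 2733 lower in DESeq2. In spermatogonia 39.6% of calls were higher, against 26.8% with library sizes alone, 27.7% with RLE and 29.5% in DESeq2. With 2 pools a gate, 21% of simulated 4-fold changes were recovered in 1N cells.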

Other observations

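At PND14, replicate 1 was sorted by DNA content, which gave 201 cells in the 2N and 186 cells in the 4N gate, 1 pool each, with no test. Kif11 was at 61.3 CPM (95% exact Poisson interval 59.3 to 63.3, counting error only) in 2N and 141.1 CPM (138.1 to 144.2) in 4N cells. Kif2c was at 78.95 CPM (76.7 to 81.3) and 133.4 CPM (130 to 136.3), and the X-linked Kif4 at 35.6 CPM (34.1 to 37.2) and 78.9 CPM (76.7 to 81.2), whereas in the PND30 4N pools Kif4 was at 0.295 and 0.518 CPM. Kif9 was at 7.46 CPM (6.77 to 8.20) in 2N and 32.1 CPM (30.7 to 33.6) in 4N cells, and Kif5c at 78.8 CPM (76.5 to 81.1) and 39.2 CPM (37.6 to 40.8).

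Pools outside the compared stages were described only. Kif9 was at 271 and 261 CPM in the PND35 pools, 278 CPM in Adult replicate 2, 244 CPM in the ungated PND30 pool and 52.2 CPM in Adult replicate 1. Kif5b was at 33.9, 43.3, 32.3, 41.1 and 173 CPM in the same pools. At PND12 Kif9 was at 13.97 and 84.4 CPM and at PND14 at 19.9 and 50.4 CPM in replicates 1 and 2.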
